A study of Mus musculus with 6 samples.

Results

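The transcriptome of wild-type (WT) mouse oocytes was described from 3 of the 6 RNA-seq libraries of a study of the gene Khdc3. The members are the libraries titled as WT replicates 1, 2 and 3, chosen by their titles alone, and the 3 libraries of the other genotype were not analysed here. Oocytes were freed by hand from mouse ovaries, and total RNA was extracted from them with a kit made for very small samples. Libraries were prepared with a kit that keeps the strand of origin. All 3 libraries carry the genotype label wild type, with no treatment named. The sources used here give no strain, age, follicle stage or number of oocytes, nor whether each replicate is a different animal, so the spread between them may be technical. Values are RPKM, read numbers divided by gene length and by the depth of the library, for 53656 gene symbols. With 1 group there is no contrast and no test, and every value is a description with its spread over 3 libraries.

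A growing oocyte makes and stores the messenger RNAs and proteins that carry it through meiosis and the first divisions of the embryo, since transcription stops before ovulation. It secretes the glycoproteins of the zona pellucida, the coat that sperm must bind, and growth factors of the TGF-beta family that act on the surrounding granulosa cells. It also accumulates a subcortical maternal complex and cytoplasmic lattices, protein assemblies held for the embryo. Many of its messenger RNAs are kept translationally silent until maturation by proteins that bind the 3′ end.

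The libraries held 34640170, 40628920 and 40417493 reads in WT replicates 1, 2 and 3, as recovered from the RPKM values. Genes at 1 RPKM or more numbered 12163, 12000 and 11827, and those at 100 RPKM or more 485, 490 and 512. On the mean of the 3 libraries, 11994 genes reached 1 RPKM, 4947 reached 10, 500 reached 100 and 25 reached 1000, while 22572 symbols were listed at 0 in every WT library. Pearson correlations of log2(RPKM + 1) between libraries were 0.988 to 0.989 across 11994 genes, which are not independent replicates. To look for duplicate libraries, the reads of each pair were set against counting error alone, which gave chi-square values of 13.9 to 19.3 per degree of freedom. None of the pairs therefore held the same reads, and this says nothing of the source of their differences.

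The label oocyte was first set beside its markers, and all 5 were among the 11 most abundant genes. The markers were chosen with earlier results of these data known, so this is no independent check of the label. Gdf9, a growth factor secreted by oocytes, stood at 3348, 3235 and 3447 RPKM in WT replicates 1, 2 and 3. Padi6, a peptidylarginine deiminase of the cytoplasmic lattices, stood at 3225, 3061 and 3120 RPKM. Zp3, a zona pellucida glycoprotein, stood at 2712, 2623 and 2980 RPKM. Together with Nlrp14, an oocyte member of the NLR family, and Bmp15, the X-linked relative of Gdf9, these genes made up 4.06 ± 0.0714% (SD, n = 3) of the summed RPKM. No library lacked any of them, and the lowest single value was 1390 RPKM, for Bmp15 in replicate 1.

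The promoters of 4 abundant genes are shown because they differ in what they carry, and because an E-box (CANNTG) is the element known for its role at zona pellucida genes, where the oocyte factor Figla acts. The sequences come from RefSeq (GRCm38.p6), run 5′ to 3′ on the strand of the gene from 250 bases before to 50 bases after its start, and have each CANNTG in capitals.
Zp3 promoter (chr5:135979855-135980154, plus strand): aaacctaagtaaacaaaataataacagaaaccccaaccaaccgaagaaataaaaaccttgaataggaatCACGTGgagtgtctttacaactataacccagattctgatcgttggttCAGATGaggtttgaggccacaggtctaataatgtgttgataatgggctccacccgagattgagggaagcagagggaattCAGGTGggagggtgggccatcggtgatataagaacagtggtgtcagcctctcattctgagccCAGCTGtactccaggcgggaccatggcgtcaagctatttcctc
Padi6 promoter (chr4:140742594-140742893, minus strand): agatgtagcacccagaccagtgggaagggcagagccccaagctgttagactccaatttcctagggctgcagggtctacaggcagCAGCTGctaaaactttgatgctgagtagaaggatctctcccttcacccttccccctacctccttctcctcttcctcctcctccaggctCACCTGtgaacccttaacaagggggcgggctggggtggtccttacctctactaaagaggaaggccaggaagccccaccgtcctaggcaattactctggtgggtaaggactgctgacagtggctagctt
Fbxw24 promoter (chr9:109626010-109626309, minus strand): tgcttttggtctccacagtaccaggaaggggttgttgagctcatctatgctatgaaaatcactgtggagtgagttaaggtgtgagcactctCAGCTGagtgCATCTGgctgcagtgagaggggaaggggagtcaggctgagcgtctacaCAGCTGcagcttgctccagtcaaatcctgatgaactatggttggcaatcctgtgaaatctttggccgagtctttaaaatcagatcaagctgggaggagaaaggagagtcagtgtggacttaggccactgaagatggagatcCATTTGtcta
Spin1 promoter (chr13:51100630-51100929, plus strand): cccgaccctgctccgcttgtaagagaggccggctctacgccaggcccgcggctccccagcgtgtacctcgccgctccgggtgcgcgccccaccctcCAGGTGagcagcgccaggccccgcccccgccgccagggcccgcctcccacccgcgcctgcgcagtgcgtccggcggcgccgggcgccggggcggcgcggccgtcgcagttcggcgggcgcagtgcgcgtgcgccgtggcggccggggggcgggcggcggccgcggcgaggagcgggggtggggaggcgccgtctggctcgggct
The Zp3 window holds 4 matches, which begin at -181, -134, -55 and 7 bases from the start. The Padi6 window holds 2, the Fbxw24 window 4 and the Spin1 window 1. CpG dinucleotides number 7, 2 and 2 in the first 3 windows and 51 in that of Spin1, whose GC content is 82.7% against 46.3% for Zp3.

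The most abundant transcript carried only a clone-based name, RP23-176J13.11, and no gene in the annotation used matched it. Its values were 3828, 4141 and 4233 RPKM, and it ranked first in each library. The smallest length that turns its values into whole reads is 833 bases, which gives 110445, 140149 and 142527 reads. Another 5 of the 30 most abundant symbols were predicted or clone-named, RP24-399H1.3, RP23-266O23.1, RP24-423N7.1, RP23-161F5.2 and Gm813, at means of 970.4 to 1328 RPKM. The files do not say what the clone-named symbols encode.

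Among named genes, H1foo came first. It stood at 3657, 3600 and 3996 RPKM in the 3 libraries, which average 3751 ± 214 RPKM (SD, n = 3). H1foo encodes the linker histone of oocytes and lies on chromosome 6 (115944938 to 115950236, plus strand, GRCm38). Gdf9 followed at 3343 ± 106 RPKM and Padi6 at 3135 ± 83.3 RPKM. Ranges separated H1foo from Gdf9 and Gdf9 from Padi6, so these 3 kept one order in all libraries. Zbed3, a zinc finger protein that takes part in the subcortical maternal complex, was at 2470, 3132 and 3138 RPKM, below Zp3 in replicate 1 and above it in the others. Its mean of 2913 ± 384 RPKM therefore does not place it apart from Padi6 or Zp3.

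Below Zp3 came Nlrp14 at 2325, 2178 and 2261 RPKM. Bcl2l10, a member of the BCL2 family of apoptosis regulators, was next at 2069, 2024 and 2114 RPKM. Both were separated from their neighbours in the order, with ranks 7 and 8 in every library. Ldhb, the B subunit of lactate dehydrogenase, stood at 1779, 1671 and 1822 RPKM. Fbxw24, an F-box protein with WD40 repeats, stood at 1661, 1639 and 1847 RPKM, and the ranges of the pair overlapped. Bmp15 closed the leading 11 at 1390, 1415 and 1394 RPKM, with the smallest spread of these genes, a coefficient of variation (CV, the SD over the mean) of 0.977%.

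From Bmp15 down to rank 30 no neighbouring ranges were separate. These ranks held Uchl1, a deubiquitinating enzyme abundant in oocytes and neurons (1238 ± 89.9 RPKM; SD, n = 3 here and in the values that follow), and Dppa3 (1230 ± 89.0 RPKM), which protects the maternal genome from loss of DNA methylation after fertilisation. They also held Zp2 (1237 ± 64.8 RPKM) and Zp1 (923.4 ± 44.2 RPKM), the partners of Zp3 in the zona. Npm2, the histone chaperone nucleoplasmin of the egg, was at 1065 ± 86.9 RPKM, and Spin1, spindlin, which binds methylated histone H3, at 1152 ± 36.9 RPKM. Tcl1, a coactivator of the kinase Akt, was at 1157 ± 59.8 RPKM. Skp1a, the adaptor of SCF ubiquitin ligases, was at 1091 ± 71.0 RPKM, beside its F-box partners Fbxw15 at 1138 ± 76.2 RPKM and Fbxw18 at 959.0 ± 53.7 RPKM. Oas1e, an oligoadenylate synthetase relative, Oog3, an oogenesin, Dppa5a, a KH-domain protein, and Tle6, a subcortical maternal complex subunit, made up the rest, at 969.8 to 1113 RPKM. Of the 29 neighbouring pairs among the 30 genes, 23 had overlapping ranges, and 28 genes stood in the top 30 of all 3 libraries.

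**Figure D1:**
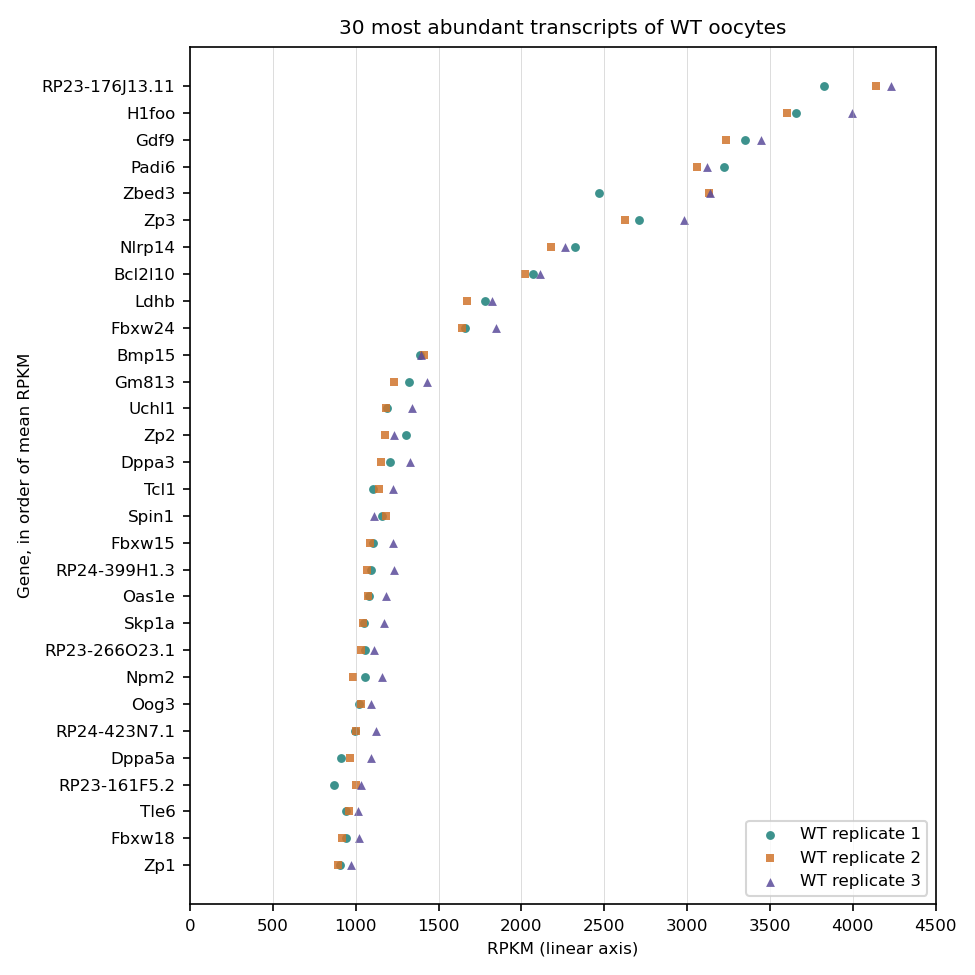
RPKM (linear axis) of the 30 genes with the highest mean, 1 point per WT library, in order of the mean. The points of the first 11 genes run from 4233 down to 1390 RPKM, those of Zbed3 are spread with replicate 1 low, and from Bmp15 down the ranges of neighbours overlap.

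The transcriptome was concentrated in these genes. The 10 most abundant held 8.58%, 8.69% and 8.96% of the summed RPKM in WT replicates 1, 2 and 3, and the 30 most abundant held 15.5%, 15.5% and 16.2%. The 100 most abundant held 27.1%, 27.1% and 28.2%, a mean of 27.5 ± 0.625% (SD, n = 3), and the 500 genes at 100 RPKM or more held 48.2 ± 0.739%. A share of 25% was reached with 76 to 83 genes, 50% with 529 to 574, and 90% with 4760 to 5003. Replicate 3 was the most concentrated of the libraries at each of these steps. RPKM divides by length, and as a share of reads the distribution was flatter. On that scale the 100 genes with the most reads held 19.1%, and 879 to 920 genes were needed to reach 50%. The top 100 of all 3 libraries had 96 genes in common, and 106 genes stood in the top 100 of at least 1 library.

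**Figure D2:**
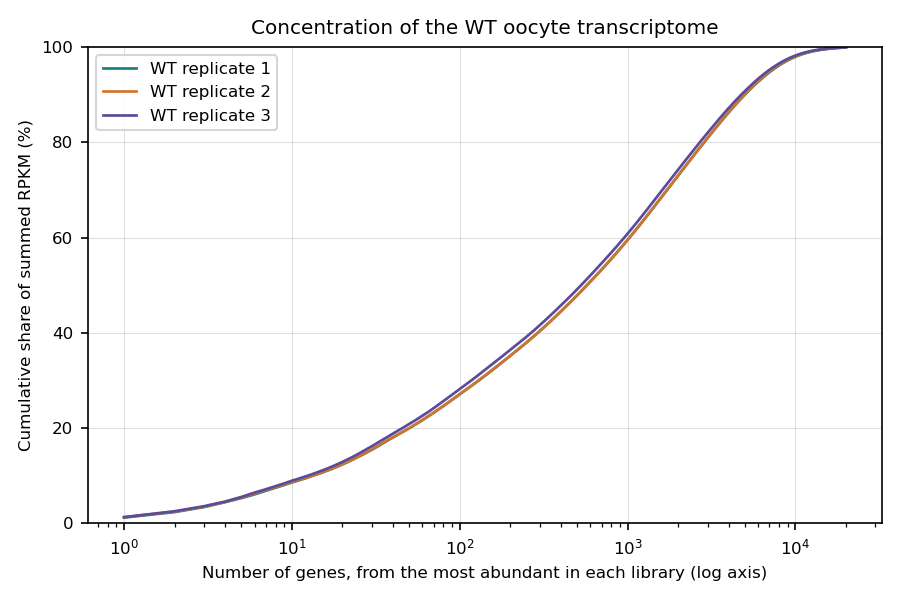
Cumulative share of summed RPKM (%) against the number of genes taken from the most abundant down (log axis), 1 line per WT library. The lines of replicates 1 and 2 lie on each other, and that of replicate 3 runs slightly above them, with 28.2% at 100 genes against 27.1%.

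By class in GENCODE M21, protein-coding genes of the nuclear genome held 86.6 ± 0.0647% (SD, n = 3) of summed RPKM and 86 of the 100 most abundant places. Symbols without a match held 11.8 ± 0.0236%, with 12 of those places. Pseudogenes held 0.637%, genes of small RNAs 0.439%, the mitochondrial genome 0.348% and long non-coding RNAs 0.169%. On reads, protein-coding genes held 93.4% and unmatched symbols 6.20%, so the latter weighed less where length was not divided out. The share of small RNA genes rested on short lengths. Gm23935, annotated as a miRNA gene of 57 bases, ranked 33 with 897.4, 943.9 and 866.0 RPKM, which correspond to 1772, 2186 and 1995 reads. Small RNA genes together held 0.0111% of reads.

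Subcortical maternal complex and lattice genes made up 4.09%, 4.23% and 4.20% of summed RPKM in WT replicates 1, 2 and 3. Of the 16 listed genes found in the table, 14 reached 100 RPKM and 9 were among the 100 most abundant. After Padi6, Zbed3 and Nlrp14, the next listed gene by level was Tle6 (941.2, 956.9 and 1011 RPKM). Khdc1b (886.8, 877.4 and 875.2 RPKM) and Ooep (534.9, 717.6 and 806.1 RPKM) followed. A place in the list does not show that a product, such as that of Khdc1b, is part of the complex or the lattices. Nlrp5, also known as Mater, an NLR protein of the same complex, stood at 611.3, 563.2 and 540.9 RPKM. Khdc3 itself, a KH-domain subunit of the complex, ranked 75. Of 18 genes of the oocyte Nlrp list, which shares 7 genes with the complex list, 9 reached 100 RPKM and 7 were under 1 RPKM. Nlrp4f, a gene of both lists, was at 575.8, 461.8 and 454.1 RPKM and was highest in replicate 1, as were Nlrp14 and Nlrp5.

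Zona pellucida and egg surface genes held 1.89 ± 0.0928% (SD, n = 3) of summed RPKM, with 6 of 13 genes at 100 RPKM or more. Below Zp3, Zp2 and Zp1, the list was led by Astl, the egg protease ovastacin that cleaves Zp2 after fertilisation, at 733.2, 609.9 and 808.8 RPKM. Cd9, a tetraspanin needed for sperm fusion, was at 129.1, 119.0 and 148.6 RPKM. All of these were lowest in replicate 2. Oocyte-secreted factors and genes of the dialogue with the follicle held 1.78 ± 0.008%. Beside Gdf9 and Bmp15, they included Gja4 at 540.1 ± 19.8 RPKM, the connexin of the gap junctions between oocyte and granulosa cells, and Fgf8, a growth factor acting on cumulus cells, at a mean of 138.6 RPKM. Kit, the receptor through which granulosa cells promote oocyte growth, was lower, at 58.8, 57.1 and 52.2 RPKM. This list of secreted factors is not complete. It leaves out Oosp1, Oosp2, Oosp3 and Rspo2, at means of 846.8, 417.3, 634.1 and 174.8 RPKM.

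Among 19 oocyte transcription factors, which together held 0.887%, Nobox, a homeobox factor needed for follicle development, was at 562.5, 617.8 and 667.9 RPKM. The Obox homeobox genes Obox5, Obox2 and Obox1 followed at means of 521.4, 438.4 and 422.3 RPKM. Of the 54 Obox symbols, 35 were listed at 0 in every library, all of them named as pseudogenes. Over all 53656 symbols, 22572 were at 0 in every library. Obox genes resemble each other closely, so the authors' counting may not place their reads with certainty. Genes of messenger RNA storage and translation held 0.948 ± 0.0198%. They were led by Zar1 (637.2, 617.4 and 703.4 RPKM) and its relative Zar1l (457.7, 484.5 and 502.4 RPKM), RNA-binding proteins that gather stored messenger RNA. Pabpn1l, an embryonic poly(A)-binding protein, followed at a mean of 480.2 RPKM, Cpeb1, which binds the cytoplasmic polyadenylation element, at 335.2 RPKM and Dazl, a germ cell RNA-binding protein, at 252.1 RPKM. Of 24 genes for deadenylation and decay, Btg4 stood far above the rest at 749.6, 787.4 and 851.7 RPKM. Btg4 brings the CCR4-NOT deadenylase to maternal messenger RNA at maturation, and the next member, Dcp1a, a decapping factor, was at a mean of 123.0 RPKM.

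Cell cycle genes held 1.55 ± 0.0358% (SD, n = 3), with 13 of 40 at 100 RPKM or more. Mos, the kinase that drives meiotic MAPK signalling, stood at 504.4, 571.1 and 583.7 RPKM. Pttg1, the separase inhibitor securin, was at 481.8, 440.2 and 502.7 RPKM, and Bub1b, a checkpoint kinase, at 382.1, 385.7 and 378.6 RPKM. Ccnb1, cyclin B1, was at a mean of 264.1 RPKM. Of the 34 listed spindle and kinetochore genes 2 reached 100 RPKM. They were Tacc3, a spindle protein, at a mean of 423.7 RPKM and Birc5, survivin of the chromosomal passenger complex, at 200.4 RPKM. Other spindle genes stand outside this list, such as Bod1, Nusap1 and Kif23 at means of 231.1, 146.5 and 106.4 RPKM. Epigenetic factors held 1.203 ± 0.0313%, with Dnmt1, the maintenance DNA methyltransferase, at 417.3, 461.0 and 417.7 RPKM after Dppa3 and Npm2. Zfp57, which guards imprints, was at a mean of 249.6 RPKM and Uhrf1, the partner of Dnmt1, at 190.1 RPKM. Histone variants held 1.37%, of which H1foo gave 1.18%, with H3f3b, a histone H3.3 gene, next at a mean of 298.9 RPKM. Replication-dependent histone genes held 0.0392%, with 53 of 69 under 1 RPKM. Over all 53656 symbols, 41662 were under 1 RPKM, a like share. The listed small RNA pathway genes held 0.151 ± 0.00362% and none of these 26 genes reached 100 RPKM. Mael, a piRNA factor, was the highest of them at a mean of 76.9 RPKM. The list leaves out Gtsf1, a factor of the same pathway, which was at a mean of 245.9 RPKM.

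Genes of general cell upkeep were broadly expressed. Over all 11994 genes at 1 RPKM or more, 4.17% reached 100 RPKM. Cytosolic ribosomal protein genes held 0.962 ± 0.00914% (SD, n = 3), with 87 of 88 at 1 RPKM or more, 8 at 100 RPKM or more, a median of 21.4 RPKM and 0 in the top 100. Nuclear genes of oxidative phosphorylation held 1.36 ± 0.0330% with 13 of 79 at 100 RPKM or more and a median of 41.1 RPKM. Proteasome subunits held 0.821%, with 9 of 44 at 100 RPKM or more, and chaperones 0.867%, with 11 of 36. The other shares were 0.656% for mitochondrial ribosomal proteins, 0.650% for translation factors and 0.472% for antioxidant defence. Protein-coding and rRNA genes of the mitochondrial genome held 0.364%, 0.319% and 0.318%, led by mt-Cytb, cytochrome b, at 290.3, 234.4 and 229.3 RPKM. The sources used here do not say how RNA was selected for the libraries, and mt-Rnr2, a ribosomal RNA, was at a mean of 220.4 RPKM. Among the listed glycolysis genes Ldhb stood far above the next, Pkm, pyruvate kinase, at 88.8, 88.3 and 88.3 RPKM. The list leaves out Bpgm, bisphosphoglycerate mutase, which was at a mean of 557.9 RPKM. Gapdh, a glycolytic enzyme often used as a reference gene, was at 20.99, 16.7 and 14.4 RPKM. Reads that match close copies of Gapdh or of ribosomal protein genes may be missing from their values, which was not tested. Tricarboxylic acid cycle genes held 0.260%.

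Further lists filled out the profile. Ubiquitin genes and conjugation held 0.660 ± 0.0431% (SD, n = 3), most of it Uchl1 and Ubb. Tubulins held 0.657 ± 0.0118%, led by the beta tubulins Tubb4b at a mean of 501.5 RPKM, Tubb2a at 432.3 RPKM and Tubb6 at 355.7 RPKM, whose near-identical copies make read assignment uncertain. Zinc finger genes of the Zfp series held 0.863%, with 226 of 366 at 1 RPKM or more and 3 at 100 or more. Oogenesin and Prame-like genes held 0.609 ± 0.00443%, with Oog3, Oog4 (mean 494.3 RPKM) and Oog2 (203.8 RPKM) at the head. Immediate-early genes, which respond to handling of tissue, held 0.0289%, with Dusp1, a MAPK phosphatase, highest at 51.5, 53.01 and 59.6 RPKM. Olfactory receptors held 0.0304%, with 13 of 1418 at 1 RPKM or more. Of all 53656 symbols, 11994 reached 1 RPKM and 500 reached 100. Lists overlap, so their shares do not add.

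**Figure D3:**
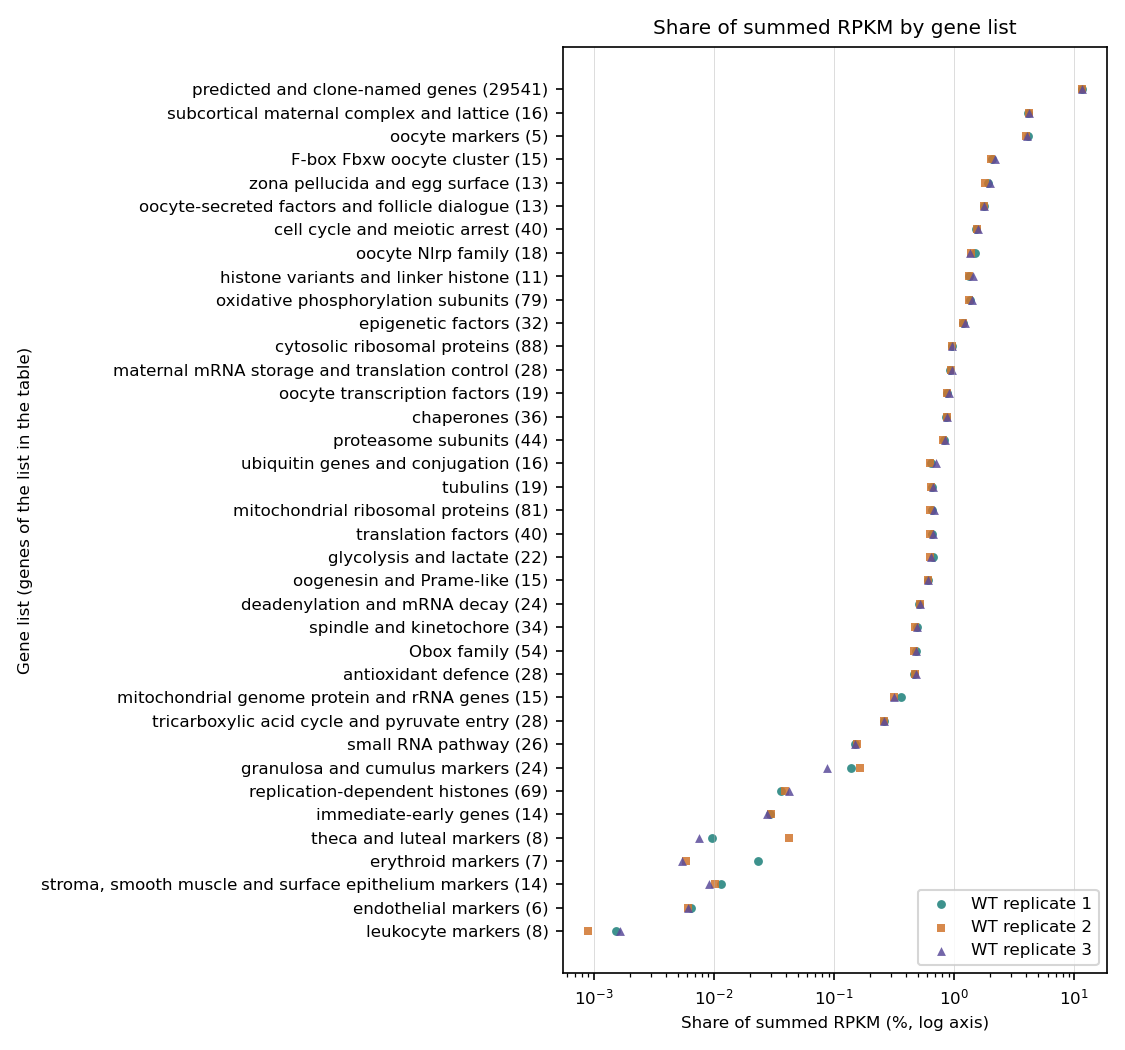
Share of summed RPKM (%, log axis) of the gene lists in the 3 WT libraries, with the number of genes found of each in brackets. The lists of olfactory receptors, Zfp zinc finger genes and mitochondrial tRNA genes are not drawn. The points of a list lie together for the oocyte and upkeep lists and spread apart for the granulosa, theca, erythroid and leukocyte marker lists toward the bottom.

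Some abundant genes sat in runs of neighbours. Of the 451 genes at 100 RPKM or more with a position, 50 (11.1%) lay in 11 groups of at least 3 such genes less than 100000 bases apart. Of these groups 1 was the mitochondrial genome, where genes are neighbours by construction, and the share for genes at lower levels was not computed. The largest group was that of 14 Fbxw genes on chromosome 9 (109139447 to 109790670, GRCm38), which held 2.05%, 2.01% and 2.18% of summed RPKM in WT replicates 1, 2 and 3. Their products are F-box proteins, and the copies resemble each other, so reads may be shared among them. The 4 genes Oas1e, Oas1c, Oas1h and Oas1d on chromosome 5 (120786226 to 120921652) held 0.952 ± 0.0383% (SD, n = 3). On chromosome 9 (78311972 to 78489151), Omt2a, Omt2b, Dppa5a, Ooep and Eef1a1 held 0.689%, 0.761% and 0.828%, with replicate 1 lowest. On chromosome 12 (105146014 to 105222793), Tcl1 and 4 of its Tcl1b relatives held 0.668 ± 0.0205%. On chromosome 19 (11647279 to 11711874), the oocyte-secreted protein genes Oosp2, Oosp1 and Oosp3 held 0.597 ± 0.0212%. Chromosome 9 held 14 of the 100 most abundant genes and 7.74% of summed RPKM, with 5.68% of the placed genes at 1 RPKM or more. For chromosome 11, which holds more genes, the same figures were 6 genes, 7.73% and 7.89%.

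The 86 protein-coding genes of the top 100 had short products and transcripts beside other expressed genes. The median length was 356.5 residues for their proteins, 363.5 bases for their 3′ UTRs and 1981 bases for the union of their exons. Over all coding genes at 1 RPKM or more, the medians were 461 residues, 875 bases and 4340 bases. RPKM divides by the exon length, so the ranking itself favours short genes and these lengths are not independent of it. Promoters were found in RefSeq for 63 of the 100 genes. Their median CpG count was 7 in 300 bases and their median GC content 52.7%, against 21 and 61.0% for genes at 1 to 100 RPKM. The values of the top 100 lay close to those of genes under 1 RPKM, 6 and 52%. Both CpG-rich promoters such as that of Spin1 and CpG-poor ones such as those of Zp3 and Padi6 were present.

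Motifs were searched on both strands in the same 300 bases. CANNTG was found in 79.4% of the 63 promoters, 62.5% of those at 1 to 100 RPKM and 72.1% of all 27025 promoters. TAATTG, the letters bound by Nobox, was found in 14.3%, 4.72% and 8.15%. GGGCGG, the Sp1 element, was found in 39.7%, 65.7% and 35.9%, and TATAAA in 11.1%, 6.47% and 14.2%. CCAAT was found in 41.3%, 39.7% and 37.9%. The sets also differ in GC content, and the part of this in the motif shares was not tested. In GGGCGG the top 100 stood nearer to all promoters than to other expressed genes.

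The last 100 bases of transcripts were read for the cytoplasmic polyadenylation element, written here as TTTTAT or TTTTAAT on the transcript strand, since Cpeb1 and the poly(A) signal AATAAA act there. The ends of 2 transcripts are shown for their order of element and signal, both in capitals, as 30 bases that end with the signal. They come from GENCODE M21 (GRCm38).
Gdf9 (3′ end): tgctgtggTTTTATgtgacggaagAATAAA
Bcl2l10 (3′ end): catTTTTAATaacttcaaattcttAATAAA
In Gdf9 the element and the signal are 10 bases apart and the signal ends 17 bases before the transcript end. In Bcl2l10 they are 14 bases apart and the signal ends 15 bases before the end. The element was found in 27.6% of 76 transcripts of the top 100 with a 3′ UTR of at least 100 bases, 21.4% of 402 at 100 RPKM or more, 1712 of 8560 at 1 to 100 RPKM and 15.9% under 1 RPKM. AATAAA was found in 76.3%, 66.7%, 65.6% and 61.4% of these sets. Where the last 100 bases were 70 to 80% A and T, the element was in 39.8% of 118 transcripts at 100 RPKM or more, 34.9% at 1 to 100 RPKM and 28.1% under 1 RPKM. Where they were 50 to 60% A and T, it was in 5.05%, 7.15% and 6.24%. A match is a run of letters and not a shown binding site.

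Abundant genes varied little between the libraries. The median CV of the 500 genes at 100 RPKM or more was 4.88%, above the 0.772% that read counting alone gives at their depth. The median was 5.70% for genes at 10 to 100 RPKM and 10.8% at 1 to 10 RPKM, where counting alone gives 1.76% and 4.64%. A CV of 25% or more was reached by 3 of the 500 genes (0.6%), by 77 of 4447 (1.73%) and by 1034 of 7047 (14.7%) in the 3 ranges. Replicate 3 was the library farthest from the other two on the high side for 219 of the 500 genes, and replicate 2 on the low side for 86. Scaling factors from median ratios were 0.996, 0.995 and 1.01, and the count of 3 was the same after this rescaling. It was 8 without replicate 2 and 1 without replicate 3.

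**Figure D4:**
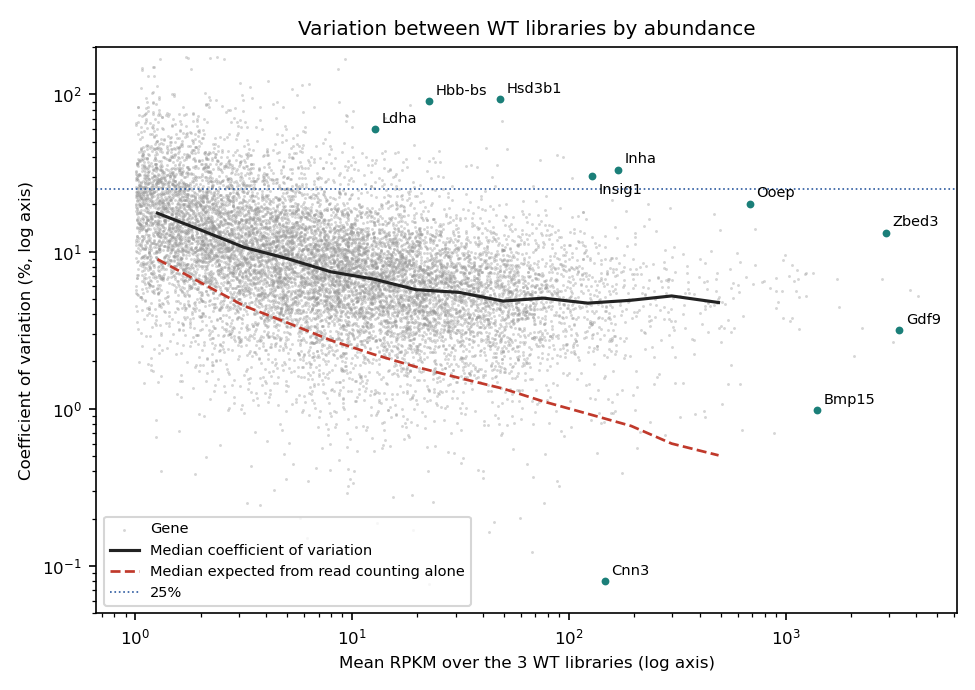
CV over the 3 WT libraries (%, log axis) against mean RPKM (log axis), 1 point per gene at 1 RPKM or more, with the median CV, the median that read counting alone gives and the 25% limit. The observed median is 4.88% at 100 RPKM or more while the counting line goes on falling, and Inha and Insig1 lie above the limit among abundant genes.

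The 3 variable abundant genes each had a pattern of their own. Inha, the inhibin alpha subunit made by granulosa cells, stood at 203.3, 197.3 and 103.8 RPKM in WT replicates 1, 2 and 3, a CV of 33.2% where counting gives 1.03%. Replicate 3 alone was low. Insig1, a membrane protein of the endoplasmic reticulum that restrains cholesterol synthesis, stood at 90.4, 126.1 and 168.3 RPKM, a CV of 30.4%, and no pair of libraries was close. RP23-188J8.3, a clone-named symbol, was at 137.4, 81.8 and 88.9 RPKM, with replicate 1 high and a CV of 29.4%. The next gene, the clone-named RP24-68H1.1, had a CV of 21.4%, so a gap lay just under the limit.

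Below the limit, the most variable named genes included Ooep and Astl, oocyte genes with high levels. High level did not go with high variation in general. The 95th percentile of the CV was 8.05% at 1000 RPKM or more and 13.2% at 100 to 1000 RPKM. Ooep, at 534.9, 717.6 and 806.1 RPKM, had a CV of 20.2% with replicate 1 low. Zbed3 had a CV of 13.2%, also with replicate 1 low. Bod1, a factor in chromosome biorientation, was at 225.8, 279.7 and 187.8 RPKM. Cdo1, cysteine dioxygenase, was at 236.4, 294.3 and 346.2 RPKM, and Dbndd1 at 94.0, 117.4 and 135.4 RPKM, both lowest in replicate 1. Ubb, a polyubiquitin gene, was at 429.0, 411.3 and 560.2 RPKM, with replicate 3 high. Mapk3, the kinase ERK1, followed the same pattern at 104.8, 112.3 and 141.2 RPKM. Tuba3a, an alpha tubulin with close copies, was at 212.4, 190.8 and 147.5 RPKM, and mt-Co1, a subunit of cytochrome c oxidase, at 112.2, 113.0 and 83.2 RPKM, both lowest in replicate 3. Astl and Umodl1 (254.3, 190.9 and 258.8 RPKM) were lowest in replicate 2, as was Tubg2, a gamma tubulin, at 121.0, 92.6 and 132.9 RPKM. Ninj1 (255.9, 192.1 and 215.0 RPKM) and Psmc1, a proteasome subunit (121.2, 92.4 and 102.5 RPKM), were highest in replicate 1. Apart from Zbed3, named for its level, the CVs of these genes ran from 13.9% to 20.2%. With Inha and Insig1 they are the 15 named genes of highest CV, and 4 predicted or unmatched symbols among them were skipped.

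The steadiest abundant genes were Cnn3, calponin 3, at 146.3, 146.1 and 146.0 RPKM, and Pcbp1, a poly(C)-binding protein, at 174.9, 176.0 and 174.7 RPKM. The CV of Cnn3 was 0.0799%, below the 0.764% that counting gives for it, and with 3 values so small a spread carries little weight. Crnkl1, a splicing factor, Cnbp, a nucleic acid-binding protein, Tm9sf2, Dazap2, Psme3, a proteasome activator, and Khdc1b completed the 8 with CVs from 0.527% to 0.816%. Khdc1b was the most abundant of them at 879.8 ± 6.16 RPKM (SD, n = 3).

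At 10 to 100 RPKM single libraries stood apart for several genes, and those that follow were named after their values were seen. Hsd3b1, a steroid synthesis enzyme, was at 24.1, 99.7 and 20.3 RPKM, with replicate 2 high. Hbb-bs, a beta globin, was at 46.6, 11.3 and 10.3 RPKM, with replicate 1 high. Trim15, a RING-type ubiquitin ligase, was at 64.4, 11.1 and 72.4 RPKM and Mrpl9, a mitochondrial ribosomal protein, at 58.6, 26.0 and 70.6 RPKM, both with replicate 2 low. Pramef12, a Prame-like gene, was at 97.1, 129.5 and 54.7 RPKM. Ldha, the A subunit of lactate dehydrogenase, was at 21.01, 11.4 and 5.85 RPKM, while Ldhb stayed between 1671 and 1822 RPKM. Of 54 cytosolic ribosomal protein genes, 60 oxidative phosphorylation subunits and 27 proteasome subunits in this range, 0 reached a CV of 25%, and at the 1.73% found over all genes of the range so few genes would hold hardly any.

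Markers of other ovarian cells were low beside the oocyte genes but differed between libraries. In bulk RNA, fewer cells of a type and less RNA per cell cannot be told apart. For the counts of markers highest or lowest in a library, here and below, the share over all genes of similar level was not computed. Over all genes, those at 1 RPKM or more numbered 12163, 12000 and 11827 in WT replicates 1, 2 and 3, fewest in replicate 3. The part of this in the marker counts was not tested. The 24 granulosa and cumulus markers summed to 434.1, 517.5 and 281.5 RPKM in WT replicates 1, 2 and 3, or 0.138%, 0.165% and 0.0871% of the total, and 20 of the 24 were lowest in replicate 3. Although the sum was highest in replicate 2, where Hsd3b1 was high, 16 of the 24 were highest in replicate 1 and 7 in replicate 2. Inha gave the largest part of this sum in each library. Serpine2, a protease inhibitor of cumulus cells, was at 92.1, 84.6 and 81.0 RPKM, and Hsd17b1 (17.3, 16.9 and 7.70 RPKM) and Gja1, the connexin of granulosa cells (16.7, 14.6 and 7.33 RPKM), were low in replicate 3 as Inha was. The defining markers Foxl2, a granulosa transcription factor (1.95, 1.47 and 0.760 RPKM), Amh, a hormone of small follicles (3.47, 1.99 and 1.6 RPKM), and Fshr, the receptor for follicle-stimulating hormone (2.15, 1.24 and 1.86 RPKM), were detected at low levels in every library.

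The 8 theca and luteal markers, 3 of which also stand in the granulosa list, summed to 30.4, 132.5 and 24.5 RPKM, and 7 of the 8 were highest in replicate 2. Beside Hsd3b1, these were led by Cyp11a1, the enzyme that opens steroid synthesis, at 1.44, 23.1 and 1.40 RPKM, and Lhcgr, the luteinising hormone receptor, at 0.249, 4.80 and 0.349 RPKM. Erythroid markers summed to 73.2, 18.3 and 17.5 RPKM, and 6 of 7 were highest in replicate 1. The globin copies resemble each other, so their reads may be shared. Hba-a2 was listed at 0 in replicate 3, where a count of 0 allows up to 0.111 RPKM (3 reads, counting error only). The 14 stromal and epithelial markers summed to 36.5, 31.8 and 29.4 RPKM, 11 of them highest in replicate 1, led by Myh11, a smooth muscle myosin, at 16.2, 15.4 and 15.5 RPKM. The 6 endothelial markers summed to 20.2, 19.1 and 19.7 RPKM, mostly Pecam1, with 5 of the 6 highest in replicate 1, while Cdh5, the endothelial cadherin, was listed at 0 in replicate 3, which allows up to 0.0177 RPKM. The 8 leukocyte markers summed to 4.88, 2.80 and 5.39 RPKM, and Adgre1 and Itgam were listed at 0 in replicates 2 and 3 and Ptprc in replicates 1 and 2. The part of other cells in the variation of Inha, Hsd3b1 and Hbb-bs was not tested.

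**Figure D5:**
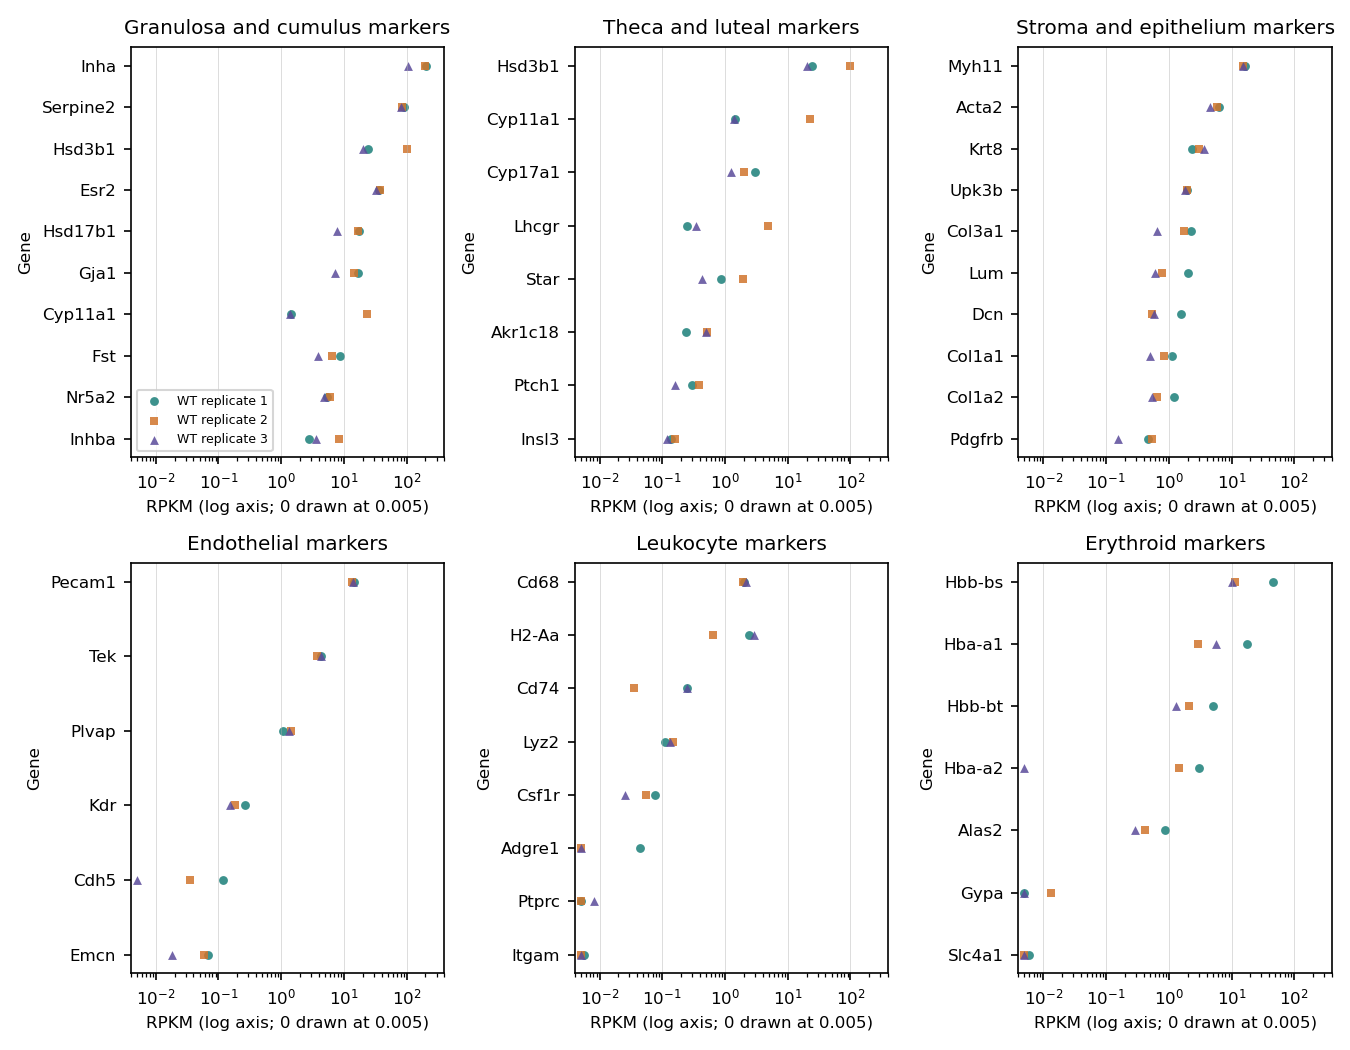
RPKM (log axis, values of 0 drawn at 0.005) of up to 10 markers of each of 6 other ovarian or blood cell types in the 3 WT libraries. Replicate 3 is low for Inha, Hsd17b1 and Gja1, replicate 2 is high for Hsd3b1, Cyp11a1 and Lhcgr, and replicate 1 is high for the globins.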

How the data were processed

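RNA-seq of mouse oocytes was analysed for 3 WT libraries, placed in their group by title. The authors deposited RPKM values, made from reads with FastQC 0.11.7, with the aligner STAR 2.6.0c and the counter featureCounts 1.6.2 on build GRCm38.p6, per the submitters' processing notes. Neither the strand setting nor the annotation is stated there, so reads of overlapping or antisense genes cannot be told apart.

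Symbols were matched to GENCODE M21 (28534 of 53656). With its exon lengths, RPKM became whole read numbers for 92.2% of 18560 matched genes (tolerance 0.01). For 13970 others the shortest length yielding whole numbers was taken, which can understate their reads, and 4 genes had no length. Recovered reads made up 99.0% of each library total. Shares are of each library's summed RPKM or reads, and the counting CV is 1 over the root of the mean read number. The recovery and the CV were tested on simulated data with counting error alone and changes well above the CV limit. This does not show how the CV limit behaves where spread exceeds counting, as it does here. Python 3.11.15, numpy 2.4.6, pandas 2.3.3 and matplotlib 3.10.9 were used.

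Named genes are the 30 highest by mean RPKM, the markers, up to 5 members of each list, and, at 100 RPKM or more, the 15 most and 8 least variable, with predicted symbols skipped. Members and lists were chosen with earlier results of these data known, and the 3′ end motifs and the position groups were added later.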

Additional observations from a re-analysis of the deposited data

How the results depend on the processing

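The 100 genes leading on RPKM held 27.5% of summed RPKM and 17.4% of recovered reads. The 100 genes with the most reads, a different set, held 19.1% of reads. On the share of reads in place of RPKM, the oocyte markers held 3.10% (4.06% on RPKM) and the zona pellucida list 1.15% (1.89%). The subcortical maternal complex list held 3.84% (4.17%), the Fbxw list 1.18% (2.08%) and oxidative phosphorylation 0.686% (1.36%). Cytosolic ribosomal proteins held 0.436% (0.962%) and protein-coding and rRNA genes of the mitochondrial genome 0.131% (0.333%). Predicted and clone-named genes held 5.08% (11.7%). Read shares do not divide by length. Without genes under 300 bases, cytosolic ribosomal proteins held 0.941% and predicted genes 10.9%, and without mitochondrial genes the latter held 11.7%. The count of variable abundant genes, 3, was 8 at a mean of at least 50 RPKM, 0 at 200, and 5 at a CV of at least 0.2. Leaving out 1 library gave 1 (without WT replicate 3) to 8 (without WT replicate 2). Leave-one-out ranges were 27.1% to 27.7% for the 100 leading genes, 357.8 to 475.8 RPKM for summed granulosa markers, 27.4 to 81.5 RPKM for theca markers, lowest without WT replicate 2, and 17.9 to 45.8 RPKM for erythroid markers, lowest without WT replicate 1. No paired analysis was possible because there is 1 group and no test. With 3 libraries no spread can be estimated closely, and clone-named genes lack positions.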
